A study of Homo sapiens with 2 samples.

Results

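Aminoacyl-tRNA synthetases are the enzymes that load each amino acid onto its tRNA, and their mRNAs were measured here after knockdown of PPIL1, a cyclophilin of the spliceosome, in Huh7 hepatocellular carcinoma cells. The members were a fixed list of 36 of the 19927 genes in the count table, chosen by name, with earlier results of these data known. The symbols ending in 1 or 3 and the subunit genes FARSA and FARSB made up 20 cytosolic enzymes, and the symbols ending in 2 made up 16 mitochondrial enzymes. The knockdown library came from cells with the short hairpin titled shPPIL1#1, labelled PPIL1 knockdown, and is called shPPIL1. The other library came from cells with the control hairpin, is labelled WT for genotype, and is called shControl. Each group was 1 library of polyadenylated RNA, so no difference below has a replicate check, no p-value is given, and "higher" and "lower" describe these libraries only.

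Cytosolic synthetases supply the ribosomes of the cytoplasm, and several of them are held in a multi-tRNA synthetase complex on the scaffold proteins AIMP1, AIMP2 and EEF1E1. Mitochondria translate their own mRNAs with a separate set of nuclear-encoded synthetases that are imported into the organelle. Genes of cytosolic synthetases are known targets of ATF4, the transcription factor of the amino acid response, which binds a composite C/EBP-ATF response element. GARS1 and KARS1 encode the enzymes for glycine and lysine in both compartments and were counted with the cytosolic set, as their symbols require.

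The libraries held 41165401 counted reads (shPPIL1) and 41015345 counted reads (shControl). The targeted gene PPIL1 had 104 reads in shPPIL1 and 1505 reads in shControl, which is 6.79% of the control level (95% counting interval 5.51 to 8.29%), the direction the labels give. All 9 hepatocyte markers examined were present, at 64.8 to 4612 FPKM (fragments scaled to gene length and library size) in shPPIL1 and 68.8 to 4564 FPKM in shControl. Of 9 markers of other cell types, 4 reached 1 FPKM in each library. Their summed level was 148 FPKM in shPPIL1 and 160 FPKM in shControl, of which the biliary and progenitor keratin KRT19 made up 126 FPKM in shPPIL1 and 137 FPKM in shControl. The others that reached 1 FPKM were CD68 (18.2 FPKM in shPPIL1 and 19.5 FPKM in shControl), COL1A1 (2.05 and 1.82 FPKM) and PECAM1 (1.27 and 1.48 FPKM). The biliary keratin KRT7 was at 0 in both libraries. The endothelial marker VWF was at 0 in shPPIL1, whereas PECAM1, also endothelial, was present in both.

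Synthetase mRNAs were slightly less abundant in shPPIL1 as a group, and no member stood at least 1.5-fold away from shControl. In bulk RNA, fewer cells that express a gene and less of its RNA per cell cannot be told apart. Of the 36 members, 31 had a ratio of shPPIL1 over shControl below 1, against 50.4% of the 12540 genes kept, and 5 had a ratio above 1, against 49.6%. Genes were kept at 1 CPM or more in at least 1 library. CPM here means reads scaled to the library size after TMM factors, and not to gene length. IARS2 and NARS2 are so close to 1 that they lie on its other side when libraries are scaled by their totals alone, which leaves 29 members below 1. The median log2 ratio was -0.12 over the members and -0.00 over all kept genes. Together the members took 0.462% of the counted reads in shPPIL1 (exact 95% binomial interval 0.460 to 0.464%) and 0.499% in shControl (0.497 to 0.501%). Their summed reads gave a ratio of 0.913 (0.908 to 0.919), where this and every interval below is an exact 95% interval from the read counts, scaled with TMM factors, that covers counting error only.

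The individual differences had a median size similar to that of all kept genes, and most pointed one way. The median absolute log2 ratio was 0.12 for the members and 0.12 for all kept genes. Many kept genes have fewer reads and thus more counting error, and no median at matched depth was computed. A member was called lower or higher when it was at least 1.2-fold away and its interval excluded 1. By that rule 6 of 36 members, or 16.7%, were lower, and 0 were higher. Over all kept genes, 9.52% were lower and 8.32% were higher, and among the 10730 genes at 5 CPM or more the shares were 8.64% and 7.04%. The 6 lower members were AARS2, EARS2, PARS2, YARS2, TARS3 and WARS1. At any fold, 22 members, or 61.1%, had an interval wholly below 1 and 1 member, FARSA, had an interval wholly above 1, against 26.4% and 24.6% of kept genes. The members had between 461 and 26659 reads in a library, more than many kept genes, and among genes at 5 CPM or more these shares were 28.4% below and 26.1% above. At the 1.5-fold rule the background was 2.22% lower and 2.02% higher, and 0 members passed in either direction.

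**Figure D1:**
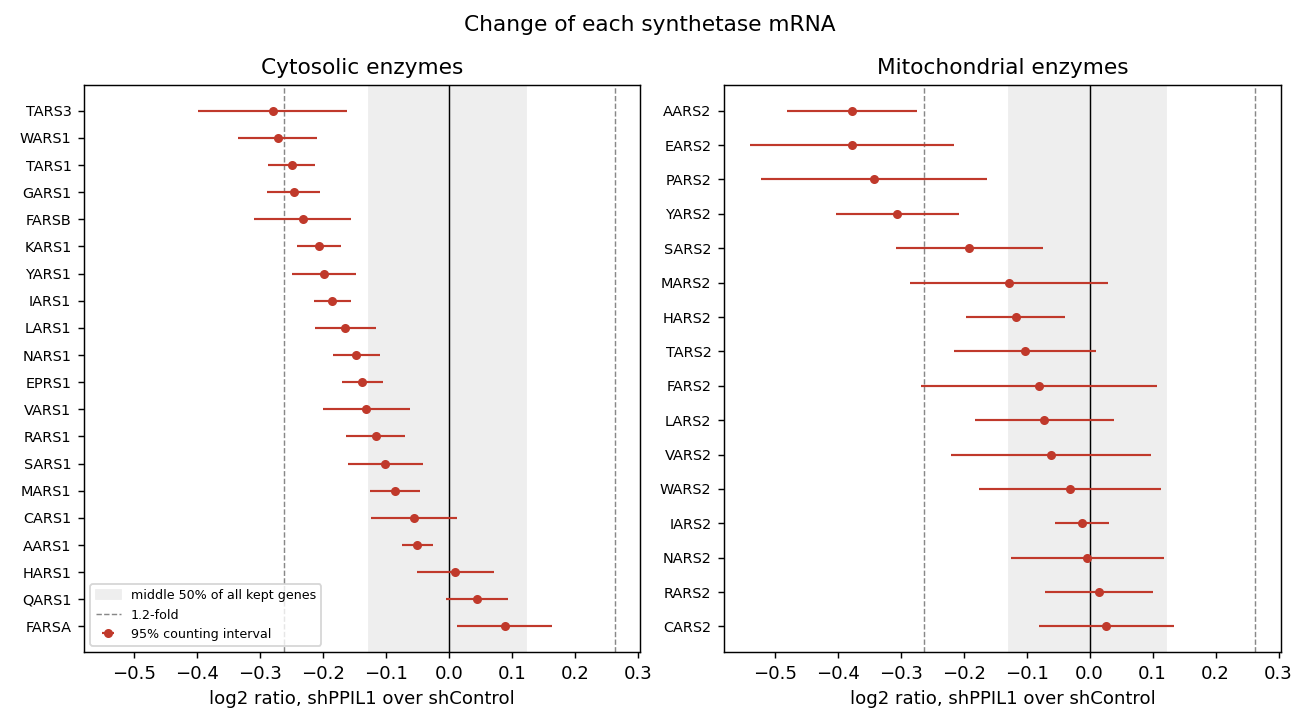
Log2 ratio of shPPIL1 over shControl (horizontal axis) for each cytosolic (left) and mitochondrial (right) synthetase, with the 95% counting interval as the bar. The grey band is the middle 50% of all kept genes (-0.13 to 0.12) and the dashed lines mark 1.2-fold; 31 of 36 points lie left of 0, and AARS2, EARS2 and PARS2 lie farthest left.

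Levels per gene length differed more between the compartments than between the libraries. The cytosolic enzymes ran from 9.08 to 221 FPKM with a median of 65.9 in shPPIL1, and from 10.5 to 226 FPKM with a median of 68.4 in shControl. The mitochondrial enzymes ran from 3.31 to 60.9 FPKM with a median of 9.41 in shPPIL1, and from 4.24 to 60.5 FPKM with a median of 10.6 in shControl. AARS1, the cytosolic alanine enzyme, had the highest level of the family in each library, and EARS2, the mitochondrial glutamate enzyme, had the lowest. IARS2, the mitochondrial isoleucine enzyme, was the only mitochondrial member above 50 FPKM, with 60.9 FPKM in shPPIL1 and 60.5 FPKM in shControl.

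**Figure D2:**
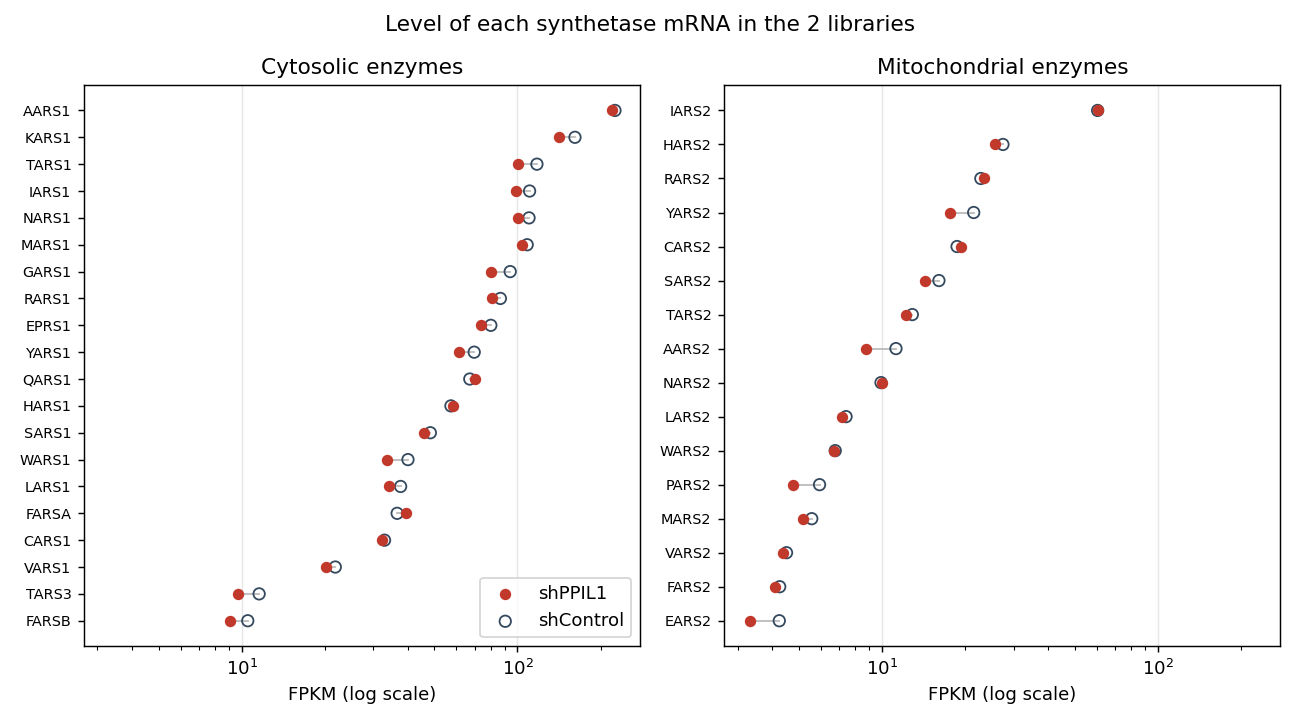
Level of each synthetase mRNA in FPKM (log axis), with filled points for shPPIL1 and open points for shControl, cytosolic enzymes left and mitochondrial enzymes right, ordered by the shControl level. Cytosolic levels reach 221 FPKM in shPPIL1 and 226 FPKM in shControl (AARS1), and the shift between the libraries is small beside the spread between genes.

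Promoter sequences are shown because the ATF4-type element was found more often in cytosolic than in mitochondrial genes. RefSeq promoters (GRCh38.p14, 250 bases before to 50 bases after the start) were matched for 30 of the 36 members. LARS1, TARS3, VARS1, YARS1, AARS2 and VARS2 had none. For CARS2, FARS2 and TARS1 the whole window used lies inside the gene's RefSeq span. The stretch before a start at the outer end of these genes was not searched in full. The core of the element was searched as TGATGNAA, where N is any base, on both strands. It was present in 6 of 16 cytosolic promoters (37.5%) and in 1 of 14 mitochondrial promoters (7.14%), against 1.73% of 10273 promoters of kept genes and 3.62% of all 35116 promoters. The cytosolic carriers were AARS1, CARS1, IARS1, MARS1, NARS1 and TARS1. In AARS1 the match began 187 bases before the start. In the other 5 it began within 20 bases of the start, and these are shown from 70 bases before the start to 30 bases after it, on the gene's strand, with the match in capitals.
CARS1 (chr11:3057394-3057493, minus strand): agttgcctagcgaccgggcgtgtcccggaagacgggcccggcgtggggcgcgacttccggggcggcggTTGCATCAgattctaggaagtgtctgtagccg
IARS1 (chr9:92293668-92293767, minus strand): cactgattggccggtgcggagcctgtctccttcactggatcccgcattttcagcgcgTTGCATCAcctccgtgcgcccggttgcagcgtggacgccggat
MARS1 (chr12:57487998-57488097, plus strand): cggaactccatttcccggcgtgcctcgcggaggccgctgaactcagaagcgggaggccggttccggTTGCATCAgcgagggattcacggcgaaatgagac
NARS1 (chr18:57621807-57621906, minus strand): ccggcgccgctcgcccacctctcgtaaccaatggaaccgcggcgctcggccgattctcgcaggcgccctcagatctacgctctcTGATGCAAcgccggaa
TARS1 (chr5:33440895-33440994, plus strand): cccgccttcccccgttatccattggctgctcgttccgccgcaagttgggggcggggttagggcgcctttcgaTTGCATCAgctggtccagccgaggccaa
The match began 13 bases before the start in IARS1, 4 before it in MARS1 and 2 before it in CARS1. In TARS1 and NARS1 it began at bases 3 and 15 counted from the start used, which in TARS1 is not the outer end of the gene. The only mitochondrial carrier was YARS2, with TGATGGAA beginning 197 bases before its start. A match describes letters and does not show that a factor binds there.

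Carriers and the other cytosolic genes had similar ratios. The median log2 ratio was -0.12 for the 6 cytosolic carriers and -0.13 for the 10 cytosolic genes whose matched promoter lacks the letters. Among the carriers the ratio was 0.841 for TARS1 (0.820 to 0.863), 0.879 for IARS1 (0.862 to 0.897) and 0.903 for NARS1 (0.880 to 0.926). It was nearer to 1 for MARS1 (0.942, 0.916 to 0.969), AARS1 (0.965, 0.949 to 0.982) and CARS1 (0.962, 0.917 to 1.01). Over all kept genes with a promoter, the median was -0.04 for the 178 carriers and -0.00 for the rest.

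Among the cytosolic enzymes, 17 of 20 had a ratio below 1, against 50.4% of all kept genes. An interval wholly below 1 was found for 16, against 26.4% of all kept genes and 28.4% of those at 5 CPM or more. The control library held a median of 6908 reads per cytosolic member. More reads give narrower intervals, and no share at matched depth was computed. At 1.2-fold, 2 of 20 (10.0%) were lower, close to the 9.52% of all kept genes, and 0 were higher. The median log2 ratio was -0.14, and the summed reads were 163985 in shPPIL1 and 177162 in shControl, a ratio of 0.909 (0.903 to 0.916).

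TARS3, a second threonine enzyme of the cytosol, had 1081 reads in shPPIL1 and 1290 reads in shControl, or 9.66 and 11.6 FPKM. Its ratio was 0.823 (0.759 to 0.893), the lowest of the cytosolic set. WARS1, the tryptophan enzyme, which is also known as an interferon-inducible gene, had 33.6 FPKM in shPPIL1 and 40.1 FPKM in shControl, a ratio of 0.828 (0.792 to 0.865). Both lay 1.21-fold below shControl, just inside the 1.2-fold rule, and both were outside it when libraries were scaled by their totals alone. TARS1, the main threonine enzyme, lay just outside at 1.19-fold, with 100.3 FPKM in shPPIL1 and 117.6 FPKM in shControl. The difference of log2 ratios, TARS1 minus TARS3, was 0.03, with an interval that includes 0 (-0.09 to 0.15).

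GARS1 and KARS1, which serve both compartments, were both lower than most cytosolic members. GARS1 had 80.4 FPKM in shPPIL1 and 94.1 FPKM in shControl, a ratio of 0.843 (0.818 to 0.868). KARS1 had 142.0 FPKM in shPPIL1 and 161.6 FPKM in shControl, a ratio of 0.866 (0.845 to 0.888). YARS1, the tyrosine enzyme, followed with 61.6 FPKM in shPPIL1 and 69.7 FPKM in shControl and a ratio of 0.871 (0.841 to 0.903).

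The phenylalanine enzyme of the cytosol, which is built from FARSA and FARSB subunits, had subunit genes with ratios on either side of 1. FARSA lies at chr19:12922479-12933711 and FARSB at chr2:222566899-222656092 (RefSeq, GRCh38.p14). FARSA, the catalytic subunit, had 2942 reads in shPPIL1 and 2720 reads in shControl, a ratio of 1.06 (1.01 to 1.12) and the highest of all 36 members. FARSB, its partner subunit, had 2565 reads in shPPIL1 and 2961 reads in shControl, a ratio of 0.851 (0.807 to 0.898). The intervals of the subunits do not overlap, and the log2 ratio of FARSA exceeded that of FARSB by 0.32 (0.21 to 0.43, a normal approximation on the counts). Per gene length, FARSA stood 4.35-fold above FARSB in shPPIL1 and 3.48-fold above it in shControl, using the gene lengths behind the deposited FPKM.

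QARS1, the glutamine enzyme, and HARS1, the histidine enzyme, were the other cytosolic members with a ratio above 1. QARS1 had 70.2 FPKM in shPPIL1 and 67.2 FPKM in shControl, a ratio of 1.03 (0.996 to 1.07). HARS1 had 58.6 FPKM in shPPIL1 and 57.4 FPKM in shControl, a ratio of 1.01 (0.965 to 1.05). The counting intervals of QARS1 and HARS1 include 1.

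The 7 members bound in the multi-tRNA synthetase complex had a median ratio close to that of the other cytosolic members. Their median log2 ratio was -0.14, and 6 of 7 had an interval below 1, against 26.4% of all kept genes, a share not matched for read depth. The 13 cytosolic members outside the complex had a median of -0.15, and 10 of 13 had an interval below 1. Within the complex KARS1 was lowest, and IARS1, the isoleucine enzyme, came next, with 98.7 FPKM in shPPIL1 and 110.6 FPKM in shControl. LARS1, the leucine enzyme, had a ratio of 0.892 (0.862 to 0.922), EPRS1, which joins the glutamate and proline enzymes in 1 protein, 0.909 (0.888 to 0.929), and RARS1, the arginine enzyme, 0.922 (0.893 to 0.953). QARS1 was the only complex member with a ratio above 1. Outside it, VARS1 and SARS1, the valine and serine enzymes, had ratios of 0.913 (0.870 to 0.958) and 0.932 (0.894 to 0.971).

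Among the mitochondrial enzymes 4 genes were at least 1.2-fold lower, and the other ratios ran from 0.876 to 1.02. Of 16 members, 14 had a ratio below 1, against 50.4% of all kept genes. An interval wholly below 1 was found for 6 members (37.5%), against 26.4% of all kept genes and 28.4% of those at 5 CPM or more, and the other 10 intervals include 1. At 1.2-fold, 4 of 16 (25%) were lower, against 9.52% of all kept genes, and 0 were higher. The summed reads were 26356 in shPPIL1 and 27615 in shControl, a ratio of 0.938 (0.922 to 0.954). The control library held a median of 1292 reads per mitochondrial member and 6908 per cytosolic member, so the mitochondrial intervals are wider.

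The lowest ratios belonged to AARS2 (chr6:44298731-44313347), EARS2 (chr16:23520754-23557375) and PARS2 (chr1:54756898-54764523). AARS2, the mitochondrial alanine enzyme, had 1357 reads in shPPIL1 and 1732 reads in shControl, or 8.78 and 11.2 FPKM, a ratio of 0.770 (0.716 to 0.827). EARS2, the glutamate enzyme of mitochondria, had 558 reads in shPPIL1 and 712 reads in shControl, a ratio of 0.770 (0.688 to 0.861). PARS2, the proline enzyme, had 461 reads in shPPIL1 and 574 reads in shControl, a ratio of 0.789 (0.697 to 0.894). Each of these intervals lies wholly below 0.9. YARS2, the tyrosine enzyme, had 17.7 FPKM in shPPIL1 and 21.5 FPKM in shControl, a ratio of 0.809 (0.756 to 0.866). The lowest member, AARS2, stood at percentile 5.68 of all kept genes by ratio, so 5.68% of those genes had a lower ratio.

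The remaining mitochondrial members were closer to shControl. SARS2, the serine enzyme, had 14.3 FPKM in shPPIL1 and 16.1 FPKM in shControl, a ratio of 0.876 (0.808 to 0.95), but 70.9% of its 100-base windows also stand in an overlapping coding gene model of GENCODE release 29, and how shared reads were counted is not known here. HARS2, the histidine enzyme, had a ratio of 0.922 (0.873 to 0.973). MARS2, TARS2, FARS2, LARS2, VARS2, WARS2, IARS2 and NARS2 had ratios of 0.916 to 0.998, each with an interval that includes 1. At the upper end RARS2, the arginine enzyme, had 23.4 FPKM in shPPIL1 and 22.8 FPKM in shControl, and CARS2, the cysteine enzyme, had 19.3 FPKM in shPPIL1 and 18.7 FPKM in shControl. Their ratios of 1.01 (0.953 to 1.07) and 1.02 (0.946 to 1.10) also include 1.

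Set against each other, the cytosolic and mitochondrial enzymes had similar central ratios. The median log2 ratio was -0.14 for the cytosolic and -0.09 for the mitochondrial members, a difference of -0.05, while the means were -0.136 and -0.135. The ratio of summed reads, which the abundant genes set, was lower for the cytosolic set (0.909, 0.903 to 0.916) than for the mitochondrial set (0.938, 0.922 to 0.954), and these counting intervals do not overlap. An interval below 1 was found for 16 of 20 cytosolic and 6 of 16 mitochondrial members, whose reads are fewer and intervals wider. Members are not replicates, and with 1 library per group the difference between the sets was not tested.

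**Figure D3:**
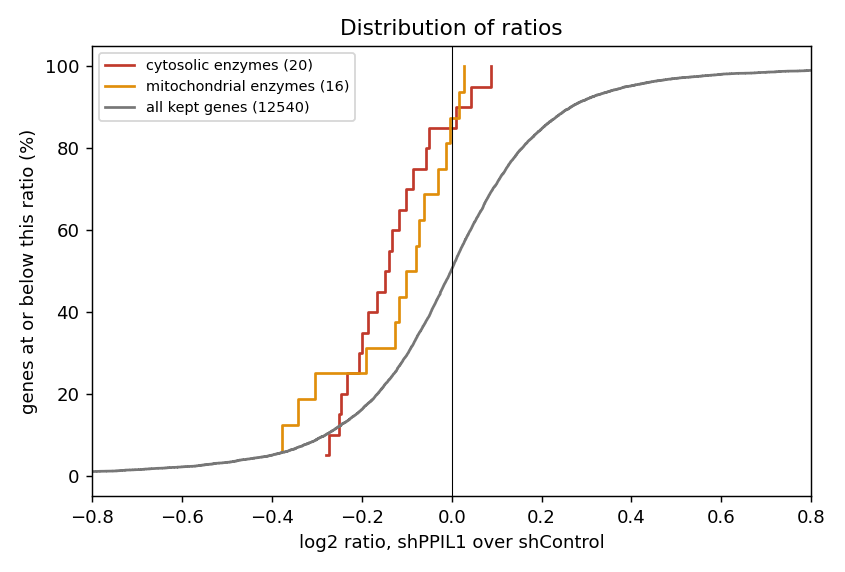
Cumulative share of genes (vertical axis, %) at or below each log2 ratio of shPPIL1 over shControl (horizontal axis, shown from -0.8 to 0.8) for 20 cytosolic enzymes, 16 mitochondrial enzymes and all 12540 kept genes. Both sets of enzymes lie left of all kept genes around the middle of the curve, with medians of -0.14 and -0.09 against -0.00, and neither reaches the tails.

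Pairing the enzymes that use the same amino acid showed differences in both directions. There were 17 pairs, in which EPRS1 and FARS2 stand more than once, and in every pair the cytosolic gene had the higher FPKM in each library. The cytosolic level was 1.62 to 25.2 times the mitochondrial one in shPPIL1 (median 4.77) and 1.76 to 20.1 times in shControl (median 5.09). The log2 ratio of the cytosolic enzyme was higher than that of its mitochondrial partner, with a counting interval excluding 0, in 4 pairs, and lower in 5 pairs, and in 8 pairs the interval included 0. These intervals use a normal approximation on the counts. Single-gene intervals lay below 1 for 26.4% and above 1 for 24.6% of all kept genes. No share was computed for pairs of other genes, so whether these counts are particular to the enzymes was not tested.

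The alanine pair was the widest, with AARS1 25.2 times as abundant per length as AARS2 in shPPIL1 and 20.1 times in shControl, and a difference of log2 ratios of 0.33 (0.22 to 0.43). For glutamate and proline, EPRS1 exceeded EARS2 by 0.24 (0.08 to 0.40) and PARS2 by 0.20 (0.02 to 0.38). HARS1 exceeded HARS2 by 0.13 (0.03 to 0.23). In the other direction the tryptophan enzyme WARS1 lay 0.24 below WARS2, a difference of -0.24 (-0.40 to -0.09), and IARS1 against IARS2 differed by -0.17 (-0.23 to -0.12). The threonine, asparagine and arginine pairs differed by -0.15 (-0.27 to -0.03), -0.14 (-0.27 to -0.02) and -0.13 (-0.23 to -0.04).

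**Figure D4:**
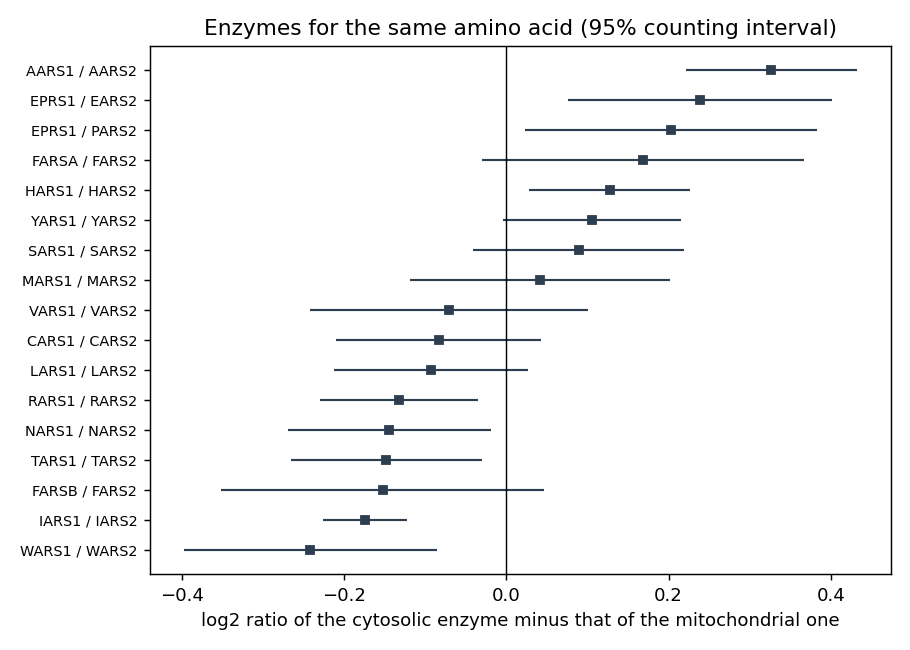
Log2 ratio (shPPIL1 over shControl) of the cytosolic enzyme minus that of the mitochondrial enzyme for the same amino acid (horizontal axis), with the 95% counting interval as the bar, for 17 pairs. AARS1 against AARS2 is farthest right at 0.33 and WARS1 against WARS2 farthest left at -0.24; 8 intervals include 0.

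HARS1 and HARS2 are also neighbours that start back to back on chromosome 5, with 84 bases between their annotated starts. That stretch is shown because the pair had different ratios from 1 shared upstream region. It is given on the HARS2 strand, with the bases between the starts in capitals and 20 transcribed bases of each gene beside them.
HARS1-HARS2 (chr5:140691351-140691474, plus strand): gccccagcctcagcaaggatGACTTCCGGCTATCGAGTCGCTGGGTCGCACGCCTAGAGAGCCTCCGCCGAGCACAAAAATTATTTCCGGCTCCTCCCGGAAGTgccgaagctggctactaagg
HARS1 had 4350 reads in shPPIL1 and 4245 reads in shControl, and HARS2 had 2567 reads in shPPIL1 and 2736 reads in shControl.

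The structural classes of the enzymes, which do not follow the compartments, had similar medians. The 19 class I members had a median log2 ratio of -0.12 with 10 of 19 intervals below 1. The 17 class II members had a median of -0.15 with 12 of 17 below 1. The share over all kept genes was 26.4%, not matched for read depth. EPRS1, which joins a class I and a class II enzyme, was counted with class I.

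Other genes of tRNA charging showed both directions. Of the 14 such genes that were kept, 3 were lower at 1.2-fold and 0 were higher, against 9.52% and 8.32% of all kept genes. At any fold 8 had an interval below 1 and 3 above, against 26.4% and 24.6%. Their median log2 ratio was -0.11. AARSD1, a proofreading factor, had 2 reads in shPPIL1 and 0 reads in shControl, so it was not kept.

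The scaffolds of the multi-tRNA synthetase complex had ratios on either side of 1. AIMP1 had 1745 reads in shPPIL1 and 2137 reads in shControl, a ratio of 0.802 (0.753 to 0.855). EEF1E1 had 923 reads in shPPIL1 and 1151 reads in shControl, a ratio of 0.788 (0.722 to 0.860). AIMP2 was higher, with 1174 reads in shPPIL1 and 1007 reads in shControl and a ratio of 1.15 (1.05 to 1.25). The interval of AIMP2 does not overlap those of AIMP1 and EEF1E1.

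The mitochondrial route to glutaminyl-tRNA, in which EARS2 loads glutamate and an amidotransferase of GATB, GATC and QRSL1 converts it, was also split. GATB had 1926 reads in shPPIL1 and 1596 reads in shControl, a ratio of 1.19 (1.11 to 1.27). GATC and QRSL1 had ratios of 0.870 (0.820 to 0.922) and 0.869 (0.817 to 0.925). MTFMT, which formylates the initiator methionyl-tRNA of mitochondria, had a ratio of 1.10 (1.01 to 1.2).

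XPOT, the exportin that carries tRNA out of the nucleus, had 8331 reads in shPPIL1 and 10199 reads in shControl, a ratio of 0.803 (0.780 to 0.826). TRNT1, which adds the CCA end to tRNA, had a ratio of 0.944 (0.854 to 1.04) and PTRH2, a peptidyl-tRNA hydrolase, 0.926 (0.869 to 0.987). The D-aminoacyl-tRNA deacylases DTD1 and DTD2 had ratios of 0.920 (0.865 to 0.979) and 0.956 (0.877 to 1.04). In the selenocysteine route, which starts from the serine that SARS1 loads, PSTK and SEPSECS had ratios of 0.931 (0.709 to 1.22) and 0.929 (0.879 to 0.982).

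Of 6 genes of the amino acid response, 2 were lower at 1.2-fold and 0 were higher, against 9.52% and 8.32% of all kept genes. ATF4 had 22165 reads in shPPIL1 and 24934 reads in shControl, a ratio of 0.873 (0.858 to 0.889). TRIB3, a pseudokinase induced by ATF4, had a ratio of 0.737 (0.709 to 0.765), and ASNS, the asparagine synthetase, 0.795 (0.765 to 0.826). EIF2AK4, the kinase that senses uncharged tRNA, and DDIT3 had intervals that include 1, with ratios of 1.04 (0.974 to 1.12) and 0.941 (0.854 to 1.04). SESN2, a stress-induced sestrin, was at 1.12 (1.08 to 1.17). Whether these values and those of the synthetases are linked was not tested.

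**Figure D5:**
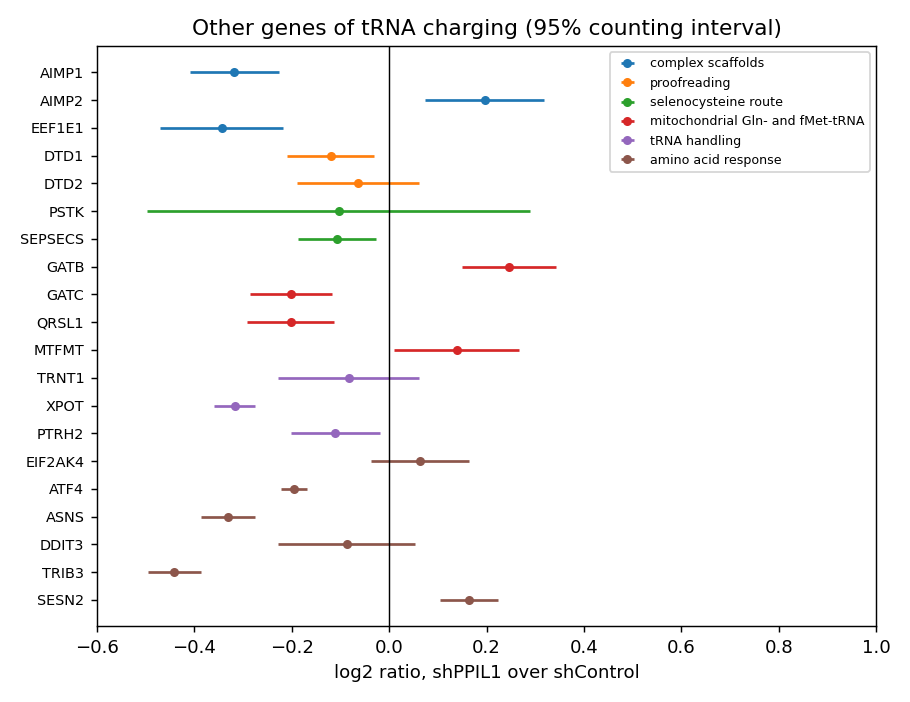
Log2 ratio of shPPIL1 over shControl (horizontal axis) with the 95% counting interval for the kept genes of tRNA charging other than synthetases and for 6 genes of the amino acid response, coloured by list. AIMP1, EEF1E1 and XPOT lie left of 0, AIMP2, GATB and MTFMT lie right of it, and TRIB3 is farthest left with a ratio of 0.737.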

How the data were processed

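Messenger RNA was sequenced in 2 libraries of Huh7 cells, 1 per group, after polyT selection and PCR, per the labels' protocols. Raw read counts for every gene were deposited by the authors in 1 table, with FPKM values in a separate file for each library. Per the submitters' processing notes the build is hg38. For the aligner, the counter, the annotation and the strand setting, no details are given in the sources used here. A further 7 count columns match no label and were not used.

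Counts were scaled with TMM factors of edgeR 4.0.16 (R 4.3.3), 1.01 for shPPIL1 and 0.993 for shControl, and genes at 1 CPM or more in at least 1 library were kept, which retained all 36 members. Ratios carry exact 95% Clopper-Pearson intervals, which reach 1.13-fold for equal counts of 500 and 1.03-fold for 10000. PCR reads without molecular identifiers are not independent molecules. Levels are deposited FPKM. With 1 library per group no test was possible. Only the intervals and the calling rule were run on simulated counts. These counts held counting error alone, with the scaling factors given, so variation between libraries was not covered. Near-identical copies were sought with exact 100-base windows, every 10 bases, in GENCODE release 29 transcripts, and 1 member, SARS2, shared at least 20% of its windows. Alternatives were DESeq2 1.42.0 size factors, library totals, other filters, folds and log2(FPKM + pseudocount). All 36 members could be named, and the members and lists were chosen with earlier results of these data known.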

Additional observations from a re-analysis of the deposited data

How the results depend on the processing

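With 1 library per group no replicate could be left out. No paired analysis was possible because the groups share no replicate numbers from the labels. The count of lower cytosolic members (2 as reported) was 0 with scaling by library totals alone and 0 at 1.5-fold, and 16 with an interval that excludes 1 at any fold, where the count of higher cytosolic members was 1. The lower mitochondrial members (4 as reported) were 0 at 1.5-fold. The ratio of summed cytosolic reads was 0.922 by library totals, a scaling that moves the log2 ratio of all genes by 0.02. Of the members, IARS2 and NARS2, whose intervals include 1, took the other sign with library totals, log2(FPKM + 1) and log2(FPKM + 0.1), which left 29 of 36 below 0, and NARS2 alone did with DESeq2 size factors, which left 30. No median, difference or ratio of summed reads took the other sign in an alternative. Of 8 alternatives, 1 took the mean over members instead of the median, giving -0.136 for cytosolic and -0.135 for mitochondrial members. Their difference was then -0.002. In the others the median log2 ratio stayed between -0.14 and -0.12 for cytosolic and between -0.09 and -0.06 for mitochondrial members. The difference of medians stayed between -0.06 and -0.04. Part of this was fixed in advance, because all members passed every filter and another scaling factor moves both medians alike. Leaving out GARS1 and KARS1 cannot move the mitochondrial median. Over DESeq2 size factors, library totals, log2(FPKM + 1) and log2(FPKM + 0.1), all 144 member values stayed within their counting interval. For the scalings this was also fixed in advance. Library totals move every member alike by 0.02, less than the narrowest half-width of 0.025 (AARS1). The FPKM settings rest on the same counts. Depth limits the least-read member, with 461 reads in shPPIL1, to differences beyond about 1.13-fold, as equal counts of 500 allow.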

Other observations

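Several synthetase genes start back to back with another gene. Of the 30 members with a matched promoter, 10 have an annotated start on the opposite strand within 1000 bases upstream, and in 8 of these the partner is a kept gene. Beside FARS2 (0.946, 0.831 to 1.08), LYRM4, a factor of mitochondrial iron-sulfur cluster assembly, had 578 reads in shPPIL1 and 803 reads in shControl, a ratio of 0.707 (0.634 to 0.788). The mitochondrial ribosomal gene MRPS12 beside SARS2 had a ratio of 0.827 (0.772 to 0.886), and UBFD1 beside EARS2 0.846 (0.801 to 0.893). In contrast TERF2IP, a telomere protein gene beside KARS1, had 2605 reads in shPPIL1 and 2238 reads in shControl, a ratio of 1.14 (1.08 to 1.21). ORC3 beside RARS2 had a ratio of 0.989 (0.944 to 1.04) and WDR25 beside WARS1 1.14 (0.984 to 1.33). The neighbours therefore lay on either side of 1.

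WARS1 is known to be induced by interferon, and genes of that response were set beside it. GBP1 had 285 reads in shPPIL1 and 194 reads in shControl, a ratio of 1.44 (1.2 to 1.74), and IRF1 had a ratio of 1.18 (1.13 to 1.23). GBP2 had 514 reads in shPPIL1 and 632 reads in shControl, a ratio of 0.799 (0.710 to 0.899), while WARS1 stood at 0.828 (0.792 to 0.865). MYC, the growth regulator, had 4133 reads in shPPIL1 and 6726 reads in shControl, a ratio of 0.604 (0.581 to 0.628), farther from 1 than any synthetase.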
